A study of Mus musculus with 3 samples.

Results

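The thrombospondin family comprises 5 paralogs in the mouse, *Thbs1*, *Thbs2*, *Thbs3*, *Thbs4* and *Comp*, and it is described here together with *Cd47*, a receptor of the product of *Thbs1*. All 6 genes were among the 27998 genes of the count tables, and all 6 had at least 1 unique molecular identifier (UMI, a tag that counts an RNA molecule once) in each library. The genes were chosen by family and with their levels by cell class and phase in these libraries already known. Every level and ratio below is therefore a description, and none of them was tested for significance. The question was which nonmyocytes (non-CMs) of the heart carry each paralog, and how the levels differ between the phases of pressure overload.

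Droplet-based single-cell RNA sequencing was performed on unselected non-CMs from the ventricles of wild-type C57BL/6JJcl mice at 3 phases. These were the healthy heart at 0 weeks, with no transverse aortic constriction (TAC), adaptive hypertrophy at 2 weeks after TAC, and heart failure at 12 weeks after TAC. The mice were males, aged 8 weeks at the operation. Each phase is 1 library, so that phase and library cannot be told apart, and whether a library holds the cells of 1 heart or of several is not stated in the sources used here. Intervals are 95% intervals of the counting error alone.

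Cells were sorted into endothelial cells (ECs), fibroblasts (FBs), mural cells (pericytes and smooth muscle cells), macrophages and monocytes by the summed UMIs of marker genes. There were 1152, 1809 and 317 ECs, 1222, 92 and 192 FBs, 386, 61 and 39 mural cells, 838, 105 and 52 macrophages, and 62, 55 and 16 monocytes at 0, 2 and 12 weeks. *Pdgfra*, the receptor that defines cardiac FBs, had a UMI in 47.1% of FBs and 1.19% of ECs, and *Cdh5*, the cadherin of endothelial junctions, in 79.2% of ECs and 2.26% of FBs. Both genes were among the markers used for the sorting, so these shares describe the classes and do not test them. The mural class was less clean, as *Cdh5* had a UMI in 26.3% of its cells. The 12-week library stood apart by platelet RNA: 28.6% of its FBs held a UMI of any of 5 platelet marker genes, against 2.45% at 0 weeks and 4.35% at 2 weeks. All 5 genes had UMIs in FBs at both 0 and 12 weeks, and 2 of them at 2 weeks. The median depth of FBs was 2958, 1833 and 2430.5 UMIs at 0, 2 and 12 weeks, and the libraries shared 9 cell barcodes in all. The FBs of the phases also fell in different clusters: 70 of the 92 FBs at 2 weeks formed a cluster with no cell of the other libraries, while 1203 of 1222 FBs at 0 weeks and 185 of 192 at 12 weeks lay in the other 3 FB clusters. ECs were divided likewise, with the largest EC cluster holding 28, 1409 and 57 cells and the next 787, 0 and 187 at 0, 2 and 12 weeks. Gene values were scaled within each library before clustering, and the libraries differed in their shares of the classes. The part of that scaling in the division by phase was not tested. Cells with over 10% mitochondrial UMIs were 3.36%, 40.2% and 17.2% of FBs, 3.10%, 17.1% and 36.5% of macrophages, 28.5%, 52.5% and 35.9% of mural cells and at most 5.45% of ECs or monocytes.

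Thrombospondins are secreted, calcium-binding glycoproteins that act between cells and matrix rather than as structural fibers. The products of *Thbs1* and *Thbs2* form trimers, restrain vessel growth through CD36 and CD47, and that of *Thbs1* also releases transforming growth factor beta from its latent form. The products of *Thbs3*, *Thbs4* and *Comp* (cartilage oligomeric matrix protein) form pentamers, bind collagen and are known from tendon and cartilage. CD47 is a membrane protein of most cells and is also the ligand of SIRPA on macrophages, by which a cell avoids being engulfed.

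The paralogs lie on separate chromosomes of GRCm38: *Thbs1* at chr2:118111876-118127133 (plus strand), *Thbs2* at chr17:14665500-14694235 (minus), *Thbs3* at chr3:89215180-89226837 (plus), *Thbs4* at chr13:92751590-92794818 (minus) and *Comp* at chr8:70373558-70382066 (plus). *Cd47* lies at chr16:49800533-49915010 (plus), and all 6 are annotated as protein-coding. RefSeq promoter sequences on GRCm38.p6 matched 4 of the 6 genes. The 250 bases before the transcript start are printed for the 3 paralogs that were nearly restricted to FBs and had an entry, so that their upstream regions can be set side by side.

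Thbs4, chr13:92794819-92795068, minus strand: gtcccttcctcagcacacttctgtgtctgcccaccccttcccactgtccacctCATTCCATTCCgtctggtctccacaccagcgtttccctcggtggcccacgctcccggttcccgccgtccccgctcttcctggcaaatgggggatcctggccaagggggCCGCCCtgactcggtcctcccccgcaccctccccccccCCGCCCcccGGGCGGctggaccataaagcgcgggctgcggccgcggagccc

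Thbs2, chr17:14694263-14694512, minus strand: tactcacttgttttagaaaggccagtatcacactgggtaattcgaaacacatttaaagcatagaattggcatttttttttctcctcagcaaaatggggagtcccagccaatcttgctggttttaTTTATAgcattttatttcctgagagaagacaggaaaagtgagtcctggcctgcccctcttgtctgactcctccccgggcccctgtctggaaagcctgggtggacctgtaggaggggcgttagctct

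Thbs3, chr3:89214930-89215179, plus strand: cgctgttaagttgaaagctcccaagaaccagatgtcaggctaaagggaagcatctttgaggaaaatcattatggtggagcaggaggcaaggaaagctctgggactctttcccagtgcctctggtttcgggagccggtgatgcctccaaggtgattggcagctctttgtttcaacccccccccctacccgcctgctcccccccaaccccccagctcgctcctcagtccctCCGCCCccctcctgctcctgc

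Capitals mark matches, on either strand, to short motifs that were picked after the sequences had been seen: the TEAD core (GGAATG), the SP1 box (GGGCGG) and the TATA box (TATAAA), with AP-1 (TGANTCA) and the E-box (CACGTG) also searched and not found. The *Thbs4* window held 2 TEAD cores that share 1 base, starting 197 and 192 bases before the start, and 3 SP1 boxes. The *Thbs2* window held 1 TATA box 126 bases before the start, and the *Thbs3* window 1 SP1 box 21 bases before it. Over all 32851 windows of this length, 12.6% held a TEAD core, 32.7% an SP1 box, 12.4% a TATA box, 6.75% an AP-1 site and 6.02% an E-box. The *Thbs4* window was also rich in G and C, at 70.8% against 58.8% for *Thbs3* and 46.8% for *Thbs2*. A match of letters is a description and not a binding site.

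By level, all paralogs but *Thbs1* were carried almost only by FBs, and *Thbs1* was also high in mural cells and monocytes. FBs held 86.7% of the *Thbs2* UMIs of the healthy library and 65.1% of those at 2 weeks, when the more numerous ECs held 25.6%. In the healthy heart *Thbs1* stood at 344 CPM in FBs (CPM, the UMIs of a gene in all cells of a class, scaled to 1000000 UMIs of that class), with an interval of 326 to 363. Mural cells were at 228 CPM (204 to 255) and monocytes at 168 CPM (122 to 226), and these neighbors in the order were not separated by their counting error (ratio 1.36, 0.986 to 1.91). Macrophages stood far lower, at 11.7 CPM, and ECs at 11.1 CPM (7.88 to 15.3), a pair that was not separated either (1.05, 0.622 to 1.76). FBs held 72.7% of the *Thbs1* UMIs of the healthy library and mural cells 17.0%. At 2 weeks FBs held 29.2%, monocytes 28.0%, mural cells 14.1% and macrophages 13.2%.

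*Thbs2*, *Thbs3*, *Thbs4* and *Comp* were 17.2 to 85.1 times higher in healthy FBs than in healthy ECs. *Thbs2* stood at 60.6 CPM in FBs, 8.53 CPM in mural cells and 2.64 CPM in ECs. *Thbs3* stood at 57.8 CPM in FBs and at 3.55 CPM in mural cells. *Thbs4* stood at 125 CPM in FBs and at most at 1.47 CPM in the other 4 classes, with 0 UMIs in monocytes, and *Comp* at 221 CPM in FBs and 12.9 CPM in ECs. Of the 6 genes, 5 were at least 2-fold higher in healthy FBs than in healthy ECs with an interval leaving out 1, where 17% of the 11256 genes examined (at least 20 UMIs over both groups) were. The exception was *Cd47*, at a ratio of 1.09 (1.01 to 1.18). With cells classed by clusters in place of marker sums, the FB-to-EC ratio of *Thbs4* was 3.62 in place of 85.1, since 4 healthy FBs with 94 *Thbs4* UMIs fell in a cluster named EC, and the ratios of *Thbs1* and *Thbs2* were 17.5 and 11.7 in place of 30.9 and 23.0.

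**Figure D1:**
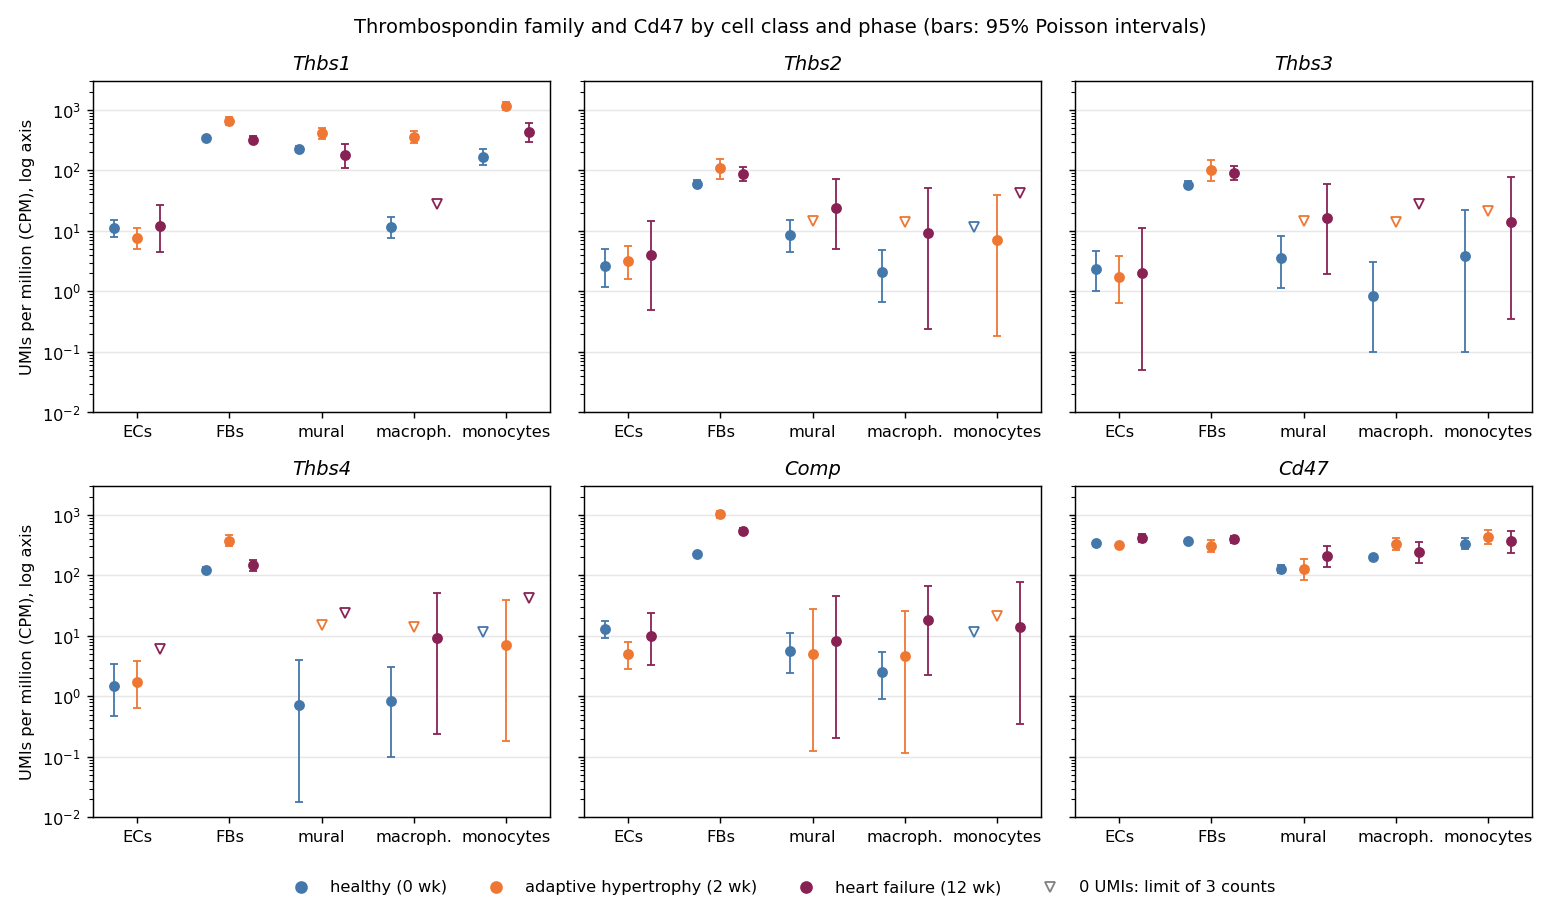
Level of each gene (CPM, log axis) in 5 cell classes at 0, 2 and 12 weeks. Circles are levels with 95% Poisson intervals of the counting error, and open triangles mark 0 UMIs at the level that 3 counts would give. *Thbs2*, *Thbs3*, *Thbs4* and *Comp* are high in FBs alone, *Thbs1* is also high in mural cells and monocytes, and *Cd47* is in every class.

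RNA freed from broken cells gives UMIs in droplets of other cells, and *Dcn*, the small proteoglycan that FBs secrete in bulk, was used to follow FB RNA in the other classes. It stood at 14379 CPM in healthy FBs, 415 CPM in ECs, 272 CPM in macrophages and 205 CPM in mural cells. At the *Dcn* level of healthy ECs, FB RNA alone would give 9.94 CPM of *Thbs1*, 1.75 CPM of *Thbs2*, 1.67 CPM of *Thbs3* and 3.60 CPM of *Thbs4*, and all 4 values lay within or above the measured intervals. These 4 paralogs were thus not measured above background in healthy ECs. The same calculation gave 4.90 CPM of *Thbs1* in healthy mural cells and 4.30 CPM in healthy monocytes, far under the measured 228 and 168 CPM. In healthy mural cells it gave 0.863 CPM of *Thbs2* and 0.824 CPM of *Thbs3*, under the measured 8.53 CPM (4.41 to 14.9) and 3.55 CPM (1.15 to 8.30). In 2-week ECs it gave 0.325 CPM of *Thbs2* and 0.301 CPM of *Thbs3*, under the measured 3.20 CPM (1.60 to 5.73) and 1.75 CPM (0.641 to 3.80). In healthy B cells, where the median depth was 1425.5 UMIs, *Thbs1* had 0 UMIs, which allows up to 68.0 CPM.

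*Comp* was the exception among the paralogs in healthy ECs. Healthy ECs held 44 UMIs of *Comp*, or 12.9 CPM (9.37 to 17.3), where FB RNA at their *Dcn* level would give 6.39 CPM. The UMIs were uneven among ECs, at 106 CPM (60.8 to 173) in the 41 cells marked by lymphatic genes such as *Prox1* and *Lyve1*, at 58.6 CPM (35.3 to 91.5) in the 97 cells marked by endocardial genes such as *Npr3*, and at 7.14 CPM (4.36 to 11.02) in the 919 cells with capillary markers. A cell can carry more than 1 of these marks. No healthy EC held more than 4 *Comp* UMIs. The level that FB RNA would give was computed for healthy ECs as a whole and not for the marked groups.

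In FBs, *Thbs1*, *Thbs4* and *Comp* were higher at 2 weeks than at 0 weeks by their counting intervals, with and without the cells over 10% mitochondrial UMIs. *Thbs2* and *Thbs3* were so only with those cells included, and *Cd47* was not. The 2-week class held more cells of high mitochondrial share and lay mostly in a cluster of its own, and the part of either in these differences was not tested. *Comp* went from 221 CPM (207 to 236) at 0 weeks to 1018 CPM (898 to 1149) at 2 weeks and 537 CPM (481 to 598) at 12 weeks. Its ratios to 0 weeks were 4.60 (3.99 to 5.28) at 2 weeks and 2.43 (2.13 to 2.75) at 12 weeks, and the 3 intervals of the level do not overlap. *Comp* was also found in more FBs, in 10.9%, 41.3% and 33.9% of them at 0, 2 and 12 weeks. After each cell was thinned to 1000 UMIs the shares were 7.20%, 24.6% and 27.6%, so that the order of the shares at 2 and 12 weeks depended on depth.

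*Thbs4* went from 125 CPM (114 to 136) to 377 CPM (306 to 460) at 2 weeks and stood at 148 CPM (119 to 181) at 12 weeks. The ratio to 0 weeks was 3.02 (2.41 to 3.76) at 2 weeks, and 1.18 (0.937 to 1.48) at 12 weeks, an interval that includes 1. FBs with a *Thbs4* UMI were 5.65%, 19.6% and 9.90% of the class. With every cell thinned to 1000 UMIs the ratios were 4.63 and 1.82. Without the cells holding a platelet UMI the 12-week ratio was 0.848, on the other side of 1. *Thbs4* and *Comp* were the 2 of the 6 genes that passed 2-fold with an interval leaving out 1 at 2 weeks, where 5.55% of 9855 genes examined were called higher and 3.13% lower. At 12 weeks 1 of the 6 was called, *Comp*, where 5.3% of 10080 genes were called higher and 2.9% lower.

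The other paralogs differed by less than 2-fold in FBs as counted, although the number of the 6 genes called at 2 weeks went from 2 to 3 under a stricter marker gate and to 4 after thinning to 1000 UMIs. *Thbs1* went from 344 to 668 CPM (572 to 776) at 2 weeks, a ratio of 1.94 (1.65 to 2.28), and was at 322 CPM (279 to 370) at 12 weeks, a ratio of 0.936 (0.803 to 1.09), which was 1.16 without the cells holding a platelet UMI. Its 2-week ratio was 2.00 (1.70 to 2.35) under the stricter gate and 2.25 (1.69 to 2.95) after thinning. *Thbs2* went from 60.6 to 109 and 88.2 CPM, with ratios of 1.79 (1.17 to 2.66) and 1.46 (1.07 to 1.96). At 2 weeks 6 of its 28 UMIs were in 1 cell, and without that cell the ratio was 1.42 (0.872 to 2.19), an interval that includes 1. *Thbs3* went from 57.8 to 101 and 91.4 CPM, with ratios of 1.75 (1.12 to 2.62) and 1.58 (1.16 to 2.12). The 2-week and 12-week levels of *Thbs2* and of *Thbs3* were not separated by their counting error, with 12-to-2-week ratios of 0.811 (0.506 to 1.33) and 0.905 (0.560 to 1.50). *Thbs1* at 12 weeks was lower than at 2 weeks (0.482, 0.392 to 0.595), as were *Thbs4* (0.392, 0.291 to 0.526) and *Comp* (0.528, 0.448 to 0.623). Without the cells over 10% mitochondrial UMIs, which left 55 of 92 FBs at 2 weeks and 1181 of 1222 at 0 weeks, the 2-week ratios were 3.62 (3.05 to 4.27) for *Comp*, 2.61 (2.00 to 3.35) for *Thbs4* and 1.79 (1.49 to 2.15) for *Thbs1*. Those of *Thbs2*, 1.45 (0.860 to 2.32), and *Thbs3*, 1.62 (0.971 to 2.56), then had intervals including 1. Without the 1 cell with the most UMIs of the gene at 2 weeks they were 3.71 (3.18 to 4.33) for *Comp* and 2.38 (1.84 to 3.04) for *Thbs4*. The comparisons with 0 weeks share the healthy library.

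The makeup of the family in FBs differed accordingly. UMIs count a molecule once whatever its length, and by UMIs *Thbs1* was 42.6% of the family in healthy FBs and *Comp* 27.4%, while at 2 weeks *Thbs1* was 29.4% and *Comp* 44.8%. In healthy mural cells *Thbs1* made up 92.5% of the family's 347 UMIs. The summed level of the 5 paralogs in FBs was 809 CPM (781 to 837) at 0 weeks and 2272 CPM (2092 to 2464) at 2 weeks.

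**Figure D2:**
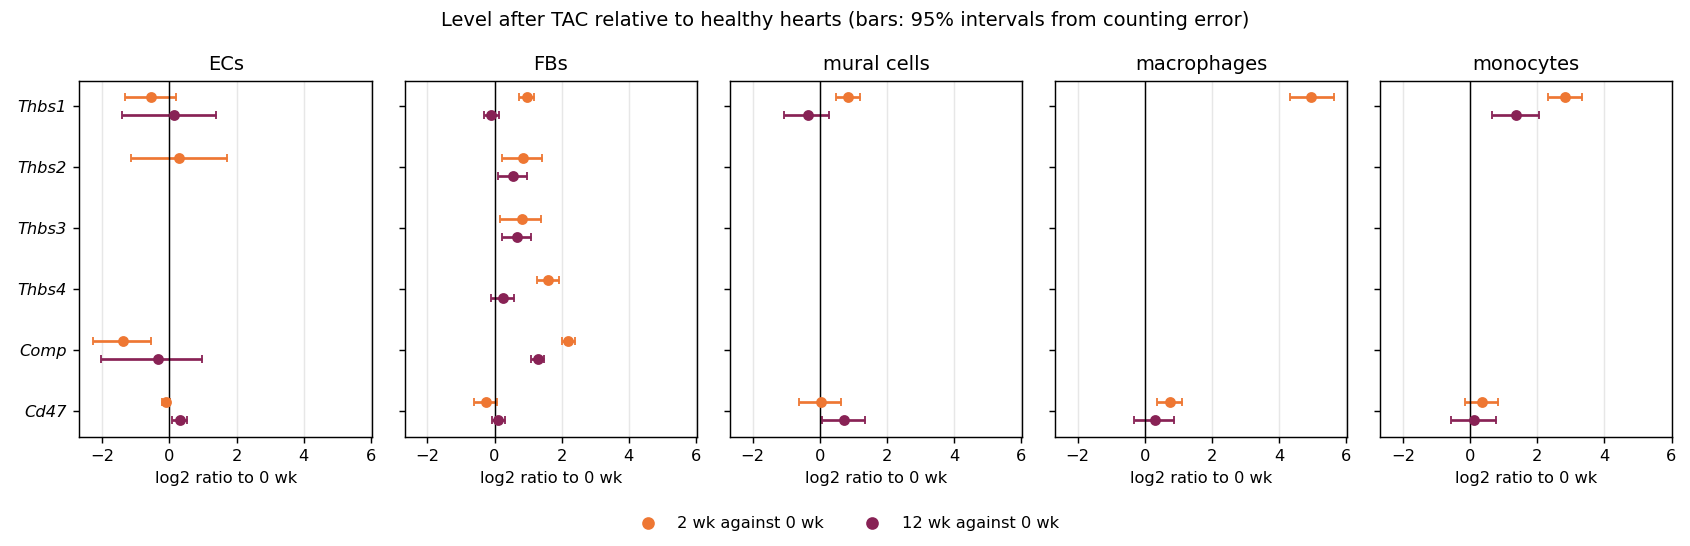
Ratio of the level at 2 and at 12 weeks to that at 0 weeks (log2 scale) for each gene in each class, with 95% intervals of the counting error. Ratios under 20 UMIs over both libraries are not drawn, nor is *Thbs1* in macrophages at 12 weeks, which had 0 UMIs. In FBs, *Comp* lies farthest to the right at both times, at ratios of 4.60 and 2.43, and *Thbs1* in macrophages and monocytes at 2 weeks exceeds every ratio in FBs.

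Within FBs, *Thbs4* was confined almost entirely to cells with at least 2 UMIs of *Postn*, *Cilp*, *Meox1* and *Ddah1*, genes known from matrix-producing FBs. These were 491 of 1222 FBs at 0 weeks, 68 of 92 at 2 weeks and 95 of 192 at 12 weeks. They held 491 of the 498 *Thbs4* UMIs at 0 weeks, all 97 at 2 weeks and all 92 at 12 weeks. The level in the marked FBs was 245 CPM (224 to 268), 450 CPM (365 to 549) and 211 CPM (170 to 259), against 3.51 CPM in the other healthy FBs. The ratio of 2 to 0 weeks within marked FBs was 1.84 (1.46 to 2.29), smaller than the 3.02 over all FBs, and at 12 weeks it was 0.859 (0.680 to 1.08).

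A few cells carried much of the *Thbs4* signal. Of the 498 UMIs in healthy FBs, 85 were in 1 cell and 202 in the top 5, and without the top cell the level was 104 CPM. At 2 weeks the top 5 cells held 64 of 97 UMIs, and at 12 weeks 62 of 92. In a division chosen after the data were seen, the 34 healthy FBs with a UMI of the tendon genes *Scx*, *Tnmd* or *Mkx* had *Thbs4* at 1265 CPM (1105 to 1443) and the other 1188 at 72.0 CPM (63.8 to 81.1). The marked cells were deeper, with a median of 4420 UMIs against 2904. The same difference was present at 2 weeks, at 1225 CPM in 5 cells against 221 CPM, and at 12 weeks, at 1420 CPM in 4 cells against 109 CPM.

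In healthy FBs, *Comp* was concentrated in a small group of cells. The 63 healthy FBs marked by *Wif1*, *Chad* and *Cilp2*, genes of a WNT inhibitor and of cartilage-type matrix proteins, held 468 of the 884 *Comp* UMIs. Their level was 2062 CPM (1880 to 2258), and that of the other 1159 FBs 110 CPM. In the other FBs, *Comp* went from 110 to 943 CPM at 2 weeks and 532 CPM at 12 weeks, ratios of 8.54 (7.22 to 10.1) and 4.82 (4.14 to 5.61). In the marked FBs it was at 1863 CPM (1325 to 2547) in 6 cells at 2 weeks and at 580 CPM (409 to 800) in 14 cells at 12 weeks. The difference between marked and other FBs was therefore 18.7-fold at 0 weeks, 1.98-fold at 2 weeks and 1.09-fold (0.753 to 1.54) at 12 weeks.

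The higher level of *Comp* after TAC was seen both in FBs with the *Postn*/*Cilp* mark and in those without. In the marked FBs it went from 341 CPM to 905 CPM at 2 weeks and 593 CPM at 12 weeks. In the FBs without the mark it went from 101 CPM (87.9 to 117) to 1594 CPM in 24 cells and 406 CPM in 97 cells. At 2 weeks 10 of these 24 cells had a UMI, 26 of their 67 UMIs were in 1 cell, and without it the level was 993 CPM (712 to 1347). *Comp* was nearly missing from the 140 healthy FBs marked by *Cxcl14* and *Hsd11b1*, at 4.34 CPM (0.525 to 15.7) against 250 CPM in the others.

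**Figure D3:**
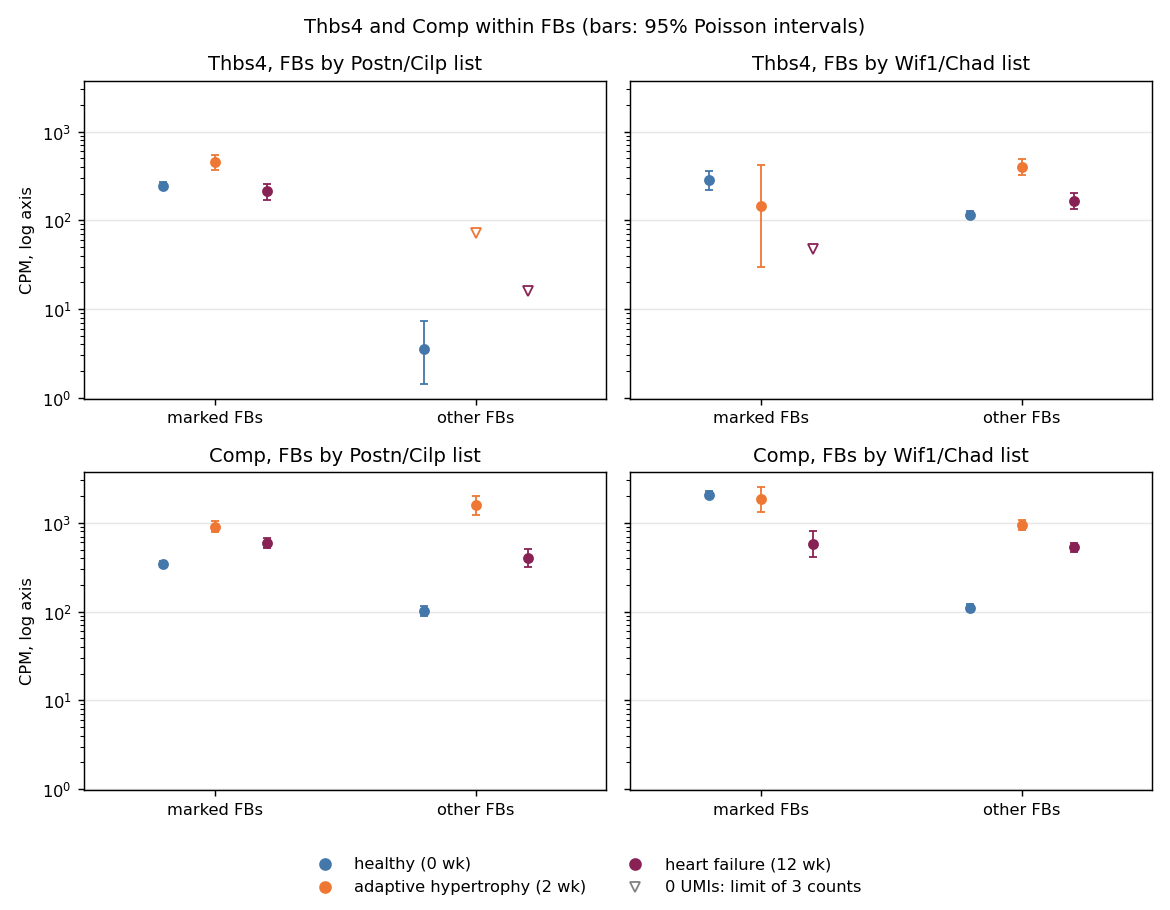
Levels of *Thbs4* and *Comp* (CPM, log axis) in FBs with at least 2 UMIs of a marker list and in the other FBs, at 0, 2 and 12 weeks, with 95% Poisson intervals. Open triangles mark 0 UMIs at the level that 3 counts would give. *Thbs4* is in FBs marked by the *Postn*/*Cilp* list at all 3 times, while *Comp* in FBs outside the *Wif1*/*Chad* list goes from 110 CPM at 0 weeks to 943 CPM at 2 weeks.

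*Comp* was found more often in healthy FBs with *Thbs4* than in those without. Of these cells, 42.0% (30.2 to 54.5) of the 69 with a *Thbs4* UMI also had a *Comp* UMI, against 9.02% of the 1153 others, although the first were deeper (median of 4423 against 2878 UMIs). After thinning to 1000 UMIs the shares were 27.3% (14.96 to 42.8) of 44 cells and 6.45% of 1178. At 2 weeks the shares were 50.0% (26.0 to 74.0) of 18 cells and 39.2% (28.0 to 51.2), and at 12 weeks 52.6% (28.9 to 75.6) of 19 cells and 31.8% (24.9 to 39.3), with intervals that overlap at both times. No such difference was measured for *Thbs1* with *Thbs4* in thinned healthy FBs, at 3.24% (1.49 to 6.06) against 3.71%.

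*Thbs1* was spread differently among FBs. It stood at 325 CPM in healthy FBs with the *Postn*/*Cilp* mark and at 364 CPM in the others, a ratio of 0.895 (0.804 to 0.996), and the order was the other way at 2 weeks, at 715 and 428 CPM (1.67, 1.02 to 2.89). From 0 to 2 weeks the ratio was 2.20 (1.83 to 2.62) in the marked FBs and 1.18 (0.694 to 1.88) in the 24 others. It was low in the 44 healthy FBs marked by *Inmt* and *Gdf10*, at 94.7 CPM (51.8 to 159), a ratio of 0.267 (0.146 to 0.450) to the others. The same ratio was 0.624 (0.333 to 1.08) on 5 marked cells at 2 weeks and 0.361 (0.162 to 0.699) on 23 at 12 weeks. *Thbs1* in the *Wif1*/*Chad*-marked FBs was 679 CPM at 0 weeks, 2.09 times (1.76 to 2.48) the level of the other FBs. It was 0.408 times (0.148 to 0.908) their level in 6 marked cells at 2 weeks and 1.02 times (0.619 to 1.61) in 14 at 12 weeks, so that no order of these groups held at all 3 times.

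Outside FBs, the largest phase differences of the family were those of *Thbs1* in monocytes and macrophages. Monocytes went from 168 CPM (122 to 226) to 1182 CPM (1008 to 1377) at 2 weeks and 433 CPM (294 to 615) at 12 weeks, ratios of 7.04 (5.00 to 10.1) and 2.58 (1.57 to 4.19). Macrophages went from 11.7 CPM to 363 CPM (287 to 453) at 2 weeks, a ratio of 31.0 (19.9 to 49.6), and had 0 UMIs in 52 cells at 12 weeks, which allows up to 28.0 CPM. *Thbs1* was called, and *Cd47*, the other of the 2 members examined, was not, in both classes, where 11% of 2256 genes were called higher in monocytes and 7.02% of 7340 in macrophages at 2 weeks. FB RNA at the *Dcn* level of 2-week macrophages would give 2.99 CPM, and *Thbs1* RNA freed from monocytes or mural cells was not estimated. At 2 weeks monocytes thus stood above FBs (1.77, 1.42 to 2.20), FBs above mural cells (1.62, 1.24 to 2.14), and mural cells and macrophages were not separated (1.13, 0.822 to 1.56).

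Only part of the cells carried it. *Thbs1* was found in 50.9% of 55 monocytes and 12.4% of 105 macrophages at 2 weeks, against 25.8% of 62 and 1.79% of 838 at 0 weeks, although the 2-week cells were shallower (medians of 2069 and 1518 UMIs against 3546.5 and 2638). Of the 78 UMIs in 2-week macrophages, 34 were in the 2 highest cells. Macrophages with a UMI of a monocyte marker such as *Plac8* or *Ly6c2* stood at 508 CPM (372 to 677) and those without at 257 CPM (176 to 363). The 12 macrophages with a UMI of *Folr2* or *Lyve1*, genes of resident macrophages, held 1 of the 78 UMIs, while at 0 weeks such cells were 427 of 838 macrophages. The class labeled macrophage therefore differs in makeup between the phases. By clusters, the 2-week cells also fell otherwise than by markers. The clusters named macrophage held 20, 7 and 2 cells at 2 weeks, and the cluster named monocyte held 165. The ratio of *Thbs1* in macrophages was not recomputed with classes taken from clusters.

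Monocytes with a UMI of *Ly6c2*, a surface gene of classical monocytes, had more *Thbs1* than the other monocytes at 0 and 2 weeks, and at 12 weeks the intervals overlapped. They stood at 739 CPM (430 to 1183) in 8 cells at 0 weeks, 1786 CPM (1467 to 2155) in 20 cells at 2 weeks and 509 CPM (311 to 786) in 7 cells at 12 weeks. Monocytes without such a UMI stood at 112, 713 and 341 CPM, and the last value was 11 UMIs in 1 of 9 cells. At 2 weeks both groups of monocytes were thus higher than at 0 weeks. All myeloid cells together, a class that does not rest on the division of monocytes from macrophages, went from 33.4 CPM (26.9 to 41.1) to 713 CPM (634 to 801) and 235 CPM (173 to 313).

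**Figure D4:**
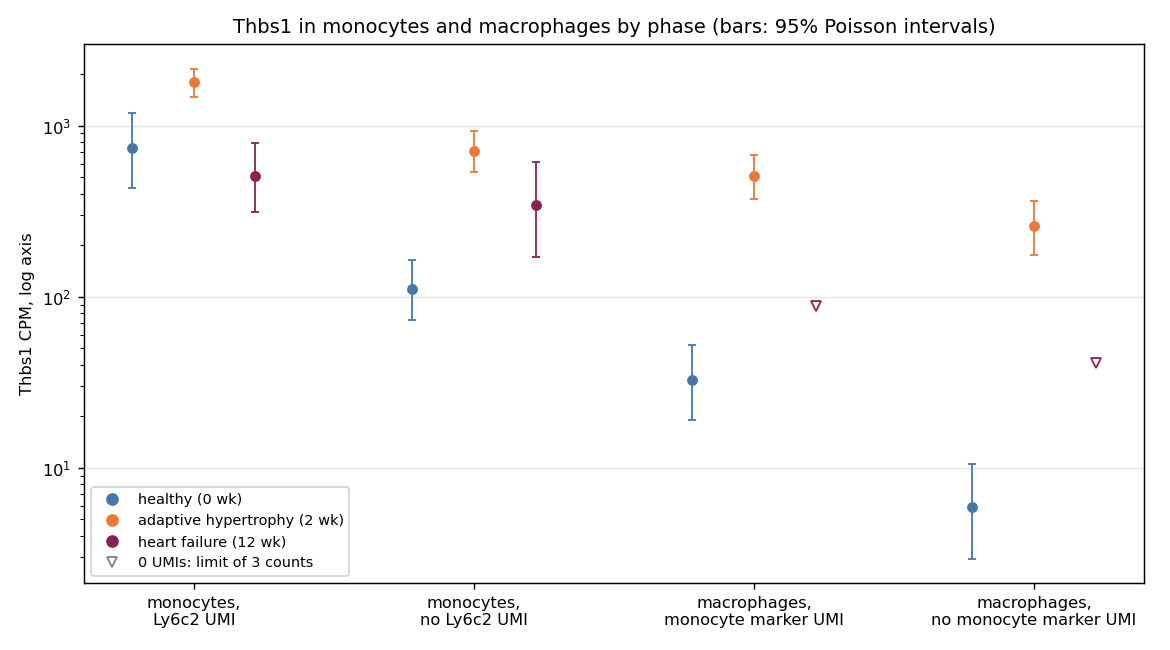
Level of *Thbs1* (CPM, log axis) in monocytes with and without a *Ly6c2* UMI and in macrophages with and without a monocyte marker UMI, at 0, 2 and 12 weeks, with 95% Poisson intervals. Open triangles mark 0 UMIs at the level that 3 counts would give. In all 4 groups the 2-week level is the highest, from 257 to 1786 CPM.

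In mural cells, *Thbs1* went from 228 CPM to 411 CPM (328 to 510) at 2 weeks and 178 CPM (112 to 270) at 12 weeks, ratios of 1.80 (1.40 to 2.30) and 0.781 (0.483 to 1.20). At 2 weeks 0 of the 2 members examined were called in mural cells, where 3.44% of 7272 genes were called higher. In healthy mural cells *Thbs1* stood at 369 CPM (317 to 426) in the 181 cells with no UMI of the pericyte genes *Kcnj8*, *Abcc9*, *Higd1b* and *Vtn*, and at 96.5 CPM (71.8 to 127) in the 116 cells with at least 3. *Cd47* ran the other way, at 100 CPM (74.3 to 132) and 149 CPM (118 to 186). At 2 weeks *Thbs1* had the same order, at 595 CPM in 22 cells and 322 CPM in 21 cells, a ratio of 1.85 (1.04 to 3.23). At 12 weeks it stood at 68.8 CPM (8.33 to 248) in 13 cells and 233 CPM (138 to 369) in 20 cells. The first of these values was 2 UMIs, and the ratio, 0.295 (0.0332 to 1.23), had an interval including 1.

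Genes induced within minutes of cell stress, including tissue dissociation, were measured beside *Thbs1*, which is itself known to respond quickly to stimuli. All 13 genes of a list of such immediate early genes, chosen after the data were seen and including *Fos*, *Jun* and *Egr1*, had UMIs in every class and library. Their summed level in FBs was 17550, 15748 and 19822 CPM at 0, 2 and 12 weeks. In macrophages it was 13604, 13393 and 18106 CPM at 0, 2 and 12 weeks. In monocytes it was 6601, 7965 and 9477 CPM at 0, 2 and 12 weeks. FBs with a share of these UMIs at or above the class median had *Thbs1* at 337 CPM against 351 CPM in the other FBs at 0 weeks, 923 against 480 CPM at 2 weeks and 465 against 216 CPM at 12 weeks. The same division gave 1505 against 958 CPM in monocytes and 149 against 530 CPM in macrophages at 2 weeks, the opposite order. *Thbs4* in FBs stood at 80.3 against 161 CPM at 0 weeks and at 676 (531 to 849) against 155 CPM (98.5 to 233) at 2 weeks, so that in the FBs below the median the interval at 2 weeks includes the level at 0 weeks. *Comp* in FBs stood at 1015 against 1020 CPM at 2 weeks and at 120 against 305 CPM at 0 weeks. The part of dissociation in any of these differences was not tested.

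*Cd47* was carried by every class, and no class differed 2-fold between 0 weeks and a later phase. In ECs it stood at 336 CPM (317 to 356), 312 CPM (294 to 331) and 415 CPM (360 to 475) at 0, 2 and 12 weeks, with ratios of 0.928 (0.853 to 1.01) and 1.23 (1.06 to 1.43). FBs stood at 367, 307 and 396 CPM, and both of their ratios to 0 weeks had intervals including 1. In healthy hearts the highest classes were FBs, ECs and monocytes, at 367, 336 and 336 CPM, followed by macrophages at 197 CPM and mural cells at 127 CPM.

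Among the 5 classes, *Cd47* differed most at 2 weeks in macrophages, from 197 to 330 CPM (258 to 417), a ratio of 1.67 (1.28 to 2.15). *Sirpa*, which encodes the receptor of CD47 on phagocytes, went from 123 to 354 CPM in the same macrophages, a ratio of 2.86 (2.20 to 3.70). Mural cells stood at 127, 129 and 211 CPM of *Cd47*, with a 12-week ratio of 1.66 (1.06 to 2.52) on 26 UMIs. *Cd47* was spread more evenly over healthy FBs than *Thbs1* or *Comp*. It was found in 63.0% of healthy FBs, and the 123 FBs with the most UMIs of a gene held 35.9% of its UMIs for *Cd47*, against 60.7% for *Thbs1* and 98.9% for *Comp*. This share also depends on the number of UMIs. *Thbs2* and *Thbs3*, with 242 and 231 UMIs and at most 5 and 4 in a cell, were too sparse to compare in this way.

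In ECs, 1 of the 4 members examined at 2 weeks was called, *Comp*, which was lower than at 0 weeks (12.9 against 4.95 CPM, a ratio of 0.384, 0.205 to 0.685), where 5.97% of 10484 genes were called lower and 3.71% higher. *Dcn* in the same ECs went from 415 to 27.9 CPM, and ECs with endocardial marks from 97 of 1152 to 30 of 1809. In addition, 5 of the 17 UMIs at 2 weeks were in 1 cell. The part of either change in the *Comp* value was not tested. At 12 weeks 0 of the 3 members examined were called in ECs, where 6.56% of 9515 genes were called higher and 4.03% lower. *Thbs1* in ECs was at 7.57 CPM (4.94 to 11.1) at 2 weeks, where FB RNA at their *Dcn* level would give 1.99 CPM, and at 12.1 CPM (4.45 to 26.4) at 12 weeks, where it would give 5.96 CPM. This calculation counts RNA from FBs alone, which held 29.2% of the *Thbs1* UMIs at 2 weeks. *Thbs1* RNA freed from other classes was not estimated, so whether 2-week ECs lie above background is not settled. The 143 ECs with venous marks at 2 weeks stood at 33.2 CPM (17.7 to 56.7) and the others at 4.27 CPM, a ratio of 7.76 (3.32 to 18.2), with 6 of the 13 UMIs of the marked cells in 1 cell.

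The receptors of thrombospondins at the cell surface were divided between classes. *Cd36*, the fatty acid transporter through which THBS1 acts on vessels, was at 1881 CPM in healthy ECs and 30.1 CPM in FBs, and *Scarb1*, a scavenger receptor of the same family, at 157 and 8.51 CPM. *Lrp1*, the receptor that takes up THBS1 and THBS2, was instead at 556 CPM in FBs and 10.3 CPM in ECs. Of 15 receptor genes, 14 were examined in this comparison, of which 6 were called higher in FBs and 4 lower, where 17% and 15.4% of all genes examined were. Over the phases, 1 of 13 examined was called higher in FBs at 2 weeks (*Itgb5*, an integrin subunit, ratio 2.21, 1.86 to 2.62) and 1 at 12 weeks (*Cd36*, ratio 2.13, 1.45 to 3.08), and none lower at either time, where 5.55% and 5.3% of all genes were called higher. No background level was computed for *Cd36* in FBs, and 28.6% of 12-week FBs held a platelet UMI against 2.45% at 0 weeks. The part of freed EC RNA or of platelet RNA in its 12-week value was not tested. In 2-week ECs 0 of 13 were called higher and 2 lower, beside 3.71% and 5.97% of all genes. In 2-week macrophages 4 of 11 were called higher, beside 7.02%.

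Among 11 genes of ligands, targets and proteases, 10 were examined in FBs. At 2 weeks 1 was called higher, *Fn1* (fibronectin), from 156 to 552 CPM, a ratio of 3.53 (2.92 to 4.24), and 2 lower, *Adamts1*, a protease that cleaves thrombospondins, at a ratio of 0.494 (0.311 to 0.747), and *Atf6*, the stress factor bound by THBS4, on 1 UMI at 2 weeks. Over all genes 5.55% were called higher and 3.13% lower. *Tgfb1* and *Tgfb3* did not pass 2-fold, at ratios of 1.98 (1.38 to 2.77) and 1.83 (1.32 to 2.49). At 12 weeks *Fn1* was lower than at 0 weeks (0.431, 0.308 to 0.589), and no gene of the list was called higher, beside 2.9% of all genes lower and 5.3% higher. The median log2 ratio of the list was 0.08 at 2 weeks, that of the receptors 0.41, that of the 6 members 0.89 and that of all genes examined -0.01.

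Across the 15 groups of class and phase, the 4 FB paralogs resembled one another, with Pearson's r of 0.90 to 0.97 between their log2(CPM + 10) levels, while r of *Thbs1* with them was 0.30 to 0.43. The groups share libraries, and FBs are 3 of the 15, so these values describe a shared class more than a shared course. Of 9859 genes ranked, those most like *Comp* were *Cilp* (0.99), *Frzb* and *Ltbp2* (both 0.98), and those most like *Thbs4* were *Frzb* (0.99), *Atp6v0a4* and *Ltbp2* (both 0.98). *Entpd2*, *Pdgfra* and *Matn2* (all 0.97) were most like *Thbs3*, and *Abca8a*, *D630003M21Rik* and *Col6a2* (all 0.96) most like *Thbs2*. The genes most like *Thbs1* were of another kind: *Ptp4a1* (0.92), *Nr4a3*, an immediate early nuclear receptor (0.91), and *Tmem184c* (0.87). *Ifngr1* (0.87), *Traf3* (0.85) and *Anxa2* (0.84) were most like *Cd47*.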

How the data were processed

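Non-CMs were measured by droplet-based 3′ RNA sequencing in 3 libraries, 1 per phase. The authors aligned the reads and counted UMIs with Cell Ranger 2.0.0, as the submitters' processing notes name it, and the deposited values are raw counts per gene and cell, without normalization. Barcodes under 200 detected genes (8, 8 and 10) were dropped, leaving 12287823, 4465929 and 1712728 UMIs at 0, 2 and 12 weeks. A cell belonged to a lineage when its markers summed to at least 3 UMIs of at least 2 genes and to at least 2 times every other lineage's sum, and 136, 58 and 73 cells stayed unassigned. Of the FBs, 23, 2 and 2 had a lead under 3 times. Myeloid cells were divided into macrophages, monocytes and neutrophils by the highest of those marker sums, with at least 2 UMIs and no tie. No minimum lead was asked in that division. Levels (CPM) are summed UMIs of a class scaled to 1000000, with exact Poisson intervals, ratios have exact conditional binomial intervals, and shares Clopper-Pearson intervals, all at 95% and covering counting error only. A level of 0 was given the limit of 3 counts. With 1 library per phase no p-value was computed. A gene was examined when it had at least 20 UMIs over both groups, and called past 2-fold with an interval leaving out 1. A cell carried a mark with at least 2 UMIs of its list, and thinned cells were drawn down to 1000 UMIs, shallower cells left out. The caller was tested on simulated data, and the settings and outcome of that test are not given here. The 6 members and all marker and partner lists were chosen with earlier results of these data known. The genes named beside the members were those of the partner lists, of the marker lists and the 3 most like each member among genes with at least 100 UMIs. The divisions by tendon, pericyte and immediate early genes and by *Folr2* or *Lyve1* were added after the data were seen. So was the use of *Dcn* to follow FB RNA. Clusters came from 2000 variable genes without the members, 30 components, 20 neighbors and Leiden at resolution 1. Gene values were centered and scaled within each library before the components were computed. The clusters put 97.5% of the 6398 cells of the 5 classes in the same class, and 89.1% of the macrophages. Scrublet called 38, 2 and 1 doublets at 0, 2 and 12 weeks, too few after TAC to count as a removal of doublets. Python 3.11.15, numpy 2.4.6, scipy 1.17.1, pandas 2.3.3, scanpy 1.11.5, scikit-learn 1.9.0, leidenalg 0.10.2 and matplotlib 3.10.9 were used. Gene coordinates come from GENCODE vM21 on GRCm38, matched by Ensembl identifier.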

Additional observations from a re-analysis of the deposited data

Results flagged for a closer look

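*Comp* moved in opposite directions in FBs and ECs at 2 weeks against 0 weeks. In FBs the ratio was 4.60 (3.99 to 5.28), and in ECs 0.384 (0.205 to 0.685). The difference was not tested, since each phase is 1 library. The EC value rests on 44 and 17 UMIs, and the *Dcn* level of ECs, which follows RNA from FBs, moved the same way, from 415 to 27.9 CPM.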

How the results depend on the processing

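The 18 ratios of members (FBs or ECs after TAC against 0 weeks, and healthy FBs against healthy ECs) were recomputed under 10 alternatives, which gave 180 values. Of these, 164 stayed within the counting interval of the ratio as reported and 16 did not, and 4 lay on the other side of 1, all for 12-to-0-week ratios in FBs whose intervals include 1 (3 of *Thbs1*, 1 of *Thbs4*). With no minimum lead between classes the healthy FB-to-EC ratio of *Thbs1* was 20.0, and with clusters in place of marker sums it was 17.5 for *Thbs1*, 11.7 for *Thbs2* and 3.62 for *Thbs4*. In FBs at 2 weeks *Comp* was at 3.62 without cells over 10% mitochondrial UMIs, 6.49 as a mean over cells of counts per 10000 and 3.53 after thinning to 1000 UMIs, and *Thbs4* at 5.19 as that mean and 4.63 after thinning. At 12 weeks *Thbs4* was at 1.94 as a mean, 1.82 after thinning and 0.848 without platelet-marked cells, and *Comp* at 2.89, 3.07 and 2.09 in the same order. *Thbs1* at 12 weeks was at 1.16 without platelet-marked cells. By an alternative chosen after seeing the data, *Comp* was at 8.54 and 4.82 at 2 and 12 weeks without FBs marked by the *Wif1*/*Chad* list, and at 8.92 and 5.10 without FBs holding any UMI of it. Of the 6 members, 2 were called higher in FBs at 2 weeks as reported, 3 under the strict gate, 4 after thinning and 2 without cells over 10% mitochondrial UMIs. The cause of these changes was not tested.

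No paired analysis was possible because each phase is 1 library and the labels give no replicate numbers, and for the same reason no replicate could be left out. Spread between hearts is not measured, and the values at 2 weeks rest on 92 FBs and those at 12 weeks on 52 macrophages and 16 monocytes. Depth limits the paralogs outside FBs, where *Thbs2*, *Thbs3* and *Thbs4* had at most 12 UMIs in any other class and library.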

Other observations

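Cells outside the 5 classes also carried *Thbs1*. Neutrophils, 3, 6 and 13 cells at 0, 2 and 12 weeks, stood at 429, 1474 and 733 CPM, and their interval at 2 weeks was 636 to 2905 CPM. Myeloid cells that were neither macrophages, monocytes nor neutrophils by their markers stood at 384, 840 and 953 CPM in 9, 23 and 5 cells. Of their 13 UMIs at 0 weeks, 12 were in 1 cell. Their 12-week value was 3 UMIs in 1 cell, with an interval of 197 to 2785 CPM. Neural cells had 0 *Thbs1* UMIs in 47 cells at 0 weeks, which allows up to 30.8 CPM, and B cells 1 UMI in 56 cells at 12 weeks. *Cd47* was at 369 CPM in healthy neural cells and 374 CPM in 16 T and NK cells at 12 weeks.

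In the 12-week library, FBs with and without a platelet marker UMI differed in several members. The 55 FBs with such a UMI stood at 194 CPM of *Thbs1* (143 to 258) and the 137 without at 406 CPM (345 to 476), while *Thbs4* was at 206 CPM (154 to 271) and 109 CPM (78.1 to 148). *Comp* was at 640 and 470 CPM. The FBs with a platelet UMI were deeper, with a median of 3415 UMIs against 2223.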
